A study of Mus musculus with 40 samples.

Results

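The nuclear genes for subunits of the respiratory chain and of ATP synthase were followed across mouse bladder urothelial organoids of 2 genotypes and 2 treatments. They were taken from the count table by symbol: those starting with Ndufa, Ndufb, Ndufc, Ndufs or Ndufv (but not Ndufaf), Sdha to Sdhd, and those starting with Uqcr, with Cox4 to Cox8 or with Atp5. The rule found 98 of 53465 genes. Of these, 9 whose symbols end in a pseudogene mark were left out, which left 89 members: 39 of complex I, 4 of complex II, 8 of complex III, 19 of complex IV, 17 of complex V, and the pair Ndufa4 and Ndufa4l2, which carry complex I names although Ndufa4 is known as a complex IV subunit. Cyc1, the catalytic cytochrome of complex III, falls outside these symbol rules and is given with the electron carriers.

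One genotype was wild type (WT), and the other carried the label of a double knockout (dKO) of the histone methyltransferase genes Kmt2c and Kmt2d, whose products act at enhancers. Both were grown for 4 days in solvent (DMSO) or in 1 µM MI-503, a small molecule that blocks the binding of menin to the methyltransferase KMT2A. All groups shared a culture medium with growth factors (EGF, Noggin, R-spondin), the kinase inhibitors Y-27632 and A83-01, and N-acetylcysteine. PolyA RNA of 8 libraries in 4 groups of 2 was counted, with 58113705 to 68571176 counts per library. The labels do not say which exons were deleted, how many clones or animals the lines came from, or whether the 2 libraries of a group were separate cultures, so p-values measure only the spread between these libraries.

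The respiratory chain sits in the inner mitochondrial membrane. Complexes I and II pass electrons from NADH and succinate to ubiquinone, complex III passes them to cytochrome c, and complex IV passes them to oxygen. Complex V, the ATP synthase, uses the resulting proton gradient to make ATP. Apart from complex II, each holds at least one subunit encoded by mitochondrial DNA beside the nuclear ones, so both genomes must supply parts of one machine.

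Sequence before the start of transcription was read from RefSeq promoter windows of GRCm38.p6, which matched 69 of the 89 members. Shown first are the 250 bases upstream of the member that rose most with MI-503 in both genotypes among those of at least 5 CPM, or counts-per-million after TMM scaling (Uqcrh, chr4:116075071-116075320, minus strand). They are followed by the same stretch of the members of at least 5 CPM whose MI-503 change was most negative and most positive in dKO relative to WT (Atp5b, chr10:128083057-128083306, plus strand, and Ndufa4, chr6:11907451-11907700, minus strand). Each is written 5′ to 3′ and ends at the base before the start. Capitals mark a match on either strand to any of the letter strings described below.

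Uqcrh: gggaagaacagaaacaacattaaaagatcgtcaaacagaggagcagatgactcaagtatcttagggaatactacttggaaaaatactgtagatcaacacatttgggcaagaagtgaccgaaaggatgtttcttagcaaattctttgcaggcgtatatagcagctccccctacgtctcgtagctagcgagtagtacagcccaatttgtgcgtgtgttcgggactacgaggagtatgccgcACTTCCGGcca
Atp5b: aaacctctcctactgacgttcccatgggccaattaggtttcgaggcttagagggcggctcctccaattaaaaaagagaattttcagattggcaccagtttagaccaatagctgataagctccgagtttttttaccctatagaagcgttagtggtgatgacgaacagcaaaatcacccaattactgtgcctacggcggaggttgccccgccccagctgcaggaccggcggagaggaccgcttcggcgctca
Ndufa4: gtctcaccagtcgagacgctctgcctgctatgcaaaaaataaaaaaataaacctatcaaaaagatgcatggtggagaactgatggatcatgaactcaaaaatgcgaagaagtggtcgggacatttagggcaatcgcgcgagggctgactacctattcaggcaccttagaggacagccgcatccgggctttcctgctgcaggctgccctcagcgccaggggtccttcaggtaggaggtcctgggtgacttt

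The strings searched on both strands were GCGCATGCG for NRF1 and CCGGAAGT for ETS factors such as GABPA, both known regulators of respiratory genes, AAGATGGC for YY1, and TGATGCAA for ATF4. In windows of 300 bases (250 before and 50 after the start), the NRF1 string was present in 8 of 69 members (11.6%) and in 1.95% of 27025 genes. The YY1 string was present in 10 members (14.5%) against 3.19% of genes, and the ETS string in 5 members (7.25%) against 4.31%. The ATF4 string was present in no member and in 1.03% of genes. A match is a string of letters, not a measured site. Of the members with a window that rose with MI-503 in both genotypes, 5 of 31 held the NRF1 string, and of the other tested members with a window 3 of 36 did. In Uqcrh the single match was the ETS string, whose first base lies 11 bases before the start.

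The 6 members with an NRF1 match wholly before the start are shown because this string, which the symbol rule did not use, had the highest ratio of its share among members to its share among all genes, of the 4 searched. The stretch around each match is printed 5′ to 3′ in the direction of the gene, with the match in capitals. Where matches on both strands overlap, the capitals run over both.

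Atp5g2: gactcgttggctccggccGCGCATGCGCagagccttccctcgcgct
Atp5k: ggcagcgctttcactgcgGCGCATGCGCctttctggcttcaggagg
Atp5l: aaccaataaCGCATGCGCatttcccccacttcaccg
Cox6a1: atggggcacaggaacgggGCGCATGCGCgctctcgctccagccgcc
Ndufa11: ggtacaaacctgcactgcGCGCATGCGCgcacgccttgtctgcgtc
Ndufa8: cttgcgcgtcgctggagaCGCATGCGC

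Members were tested on counts with edgeR's quasi-likelihood test over 16921 genes, with Benjamini-Hochberg adjustment and a threshold of 0.05. Of the 89 members, 84 passed the filter on low counts. The isoform genes Cox4i2, Cox7b2, Cox8b and Cox8c had no count in any library, which allows up to 0.0438 to 0.0516 CPM by library, and Ndufa11b had 1 to 6 counts. CPM are scaled by TMM throughout, except these limits. Levels are not compared between genes, since counts were not divided by transcript length.

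RNA of the targeted genes was read first. Kmt2c measured 110.2 and 110.9 CPM in WT DMSO, 60.3 and 61.6 in WT MI-503, 55.2 and 52.3 in dKO DMSO, and 26.6 and 29.8 in dKO MI-503. Kmt2d measured 95.4 and 86.5 CPM in WT DMSO, 75.8 and 65.7 in WT MI-503, 111.1 and 133.4 in dKO DMSO, and 104.1 and 86.5 in dKO MI-503. By genotype in DMSO Kmt2c was lower (-1.04) and Kmt2d was higher (0.43), which goes against the label for Kmt2d. Whole-gene counts cannot show a lost exon, so dKO stands throughout for the libraries labelled dKO, and every difference by genotype is one between libraries as labelled. The label of the tissue was checked by 18 urothelial markers, whose sum was 12600 to 23300 CPM, with Upk2 under 1 CPM. Their sum was lowest in WT DMSO (12600 to 13800) and 18500 or more elsewhere. Of the 17 tested, 9 were higher (52.9%) and 5 lower (29.4%) in dKO in DMSO, against 29.6% and 35.8% of all tested genes. In MI-503, 7 were higher (41.2%) and 9 lower (52.9%), against 26.6% and 28.5%. Single log2 fold changes by genotype ran from -4.60 to 5.07 in DMSO and from -4.60 to 3.71 in MI-503. The sum thus does not show that the markers were alike between groups. Fibroblast markers summed to 1.33 to 8.49 CPM, with Col1a2, Dcn, Lum and Thy1 at 0, and endothelial markers to at most 0.468. Smooth muscle markers summed to 1.26 to 42.8 CPM and immune markers to 13.1 to 166 CPM, both highest in WT MI-503 (40.3 to 42.8 and 161 to 166). In these lists 5 of 6 and 6 of 7 genes were under 1 CPM, and the part of other cells in the members' changes was not tested. In bulk RNA, fewer cells of a type and less RNA per cell cannot be told apart.

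Most changes in these genes were smaller than 2-fold, and the clearest shared direction was a rise with MI-503. In WT, 42 of 84 members rose and 20 fell with MI-503, where 35.2% of all tested genes rose and 33.7% fell. The median log2 fold change of the members was 0.26, against 0.03 for all tested genes. In the dKO-labelled organoids, 51 members rose and 7 fell, where 29.1% of all genes rose and 26.5% fell, and the median was 0.25 against 0.03. In both genotypes a larger share of the members than of all genes rose, and a smaller share fell.

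The genotypes differed less evenly. In DMSO, 26 members were higher and 39 lower in the dKO-labelled organoids, where 29.6% of all genes were higher and 35.8% lower. The medians were -0.10 for the members and -0.05 for all genes. Scaled by library size alone, 38 were higher and 18 lower and the median was 0.13, but that scaling also moved the median of all genes by 0.23. In MI-503, 19 members were higher (22.6%) and 17 lower (20.2%), where 26.6% and 28.5% of all genes were, and 48 did not pass. A change of at least 2-fold that passed was found for 5 members by genotype in DMSO, 7 with MI-503 in WT, 8 with MI-503 in dKO and 1 by genotype in MI-503. These were 5.95%, 8.33%, 9.52% and 1.19% of the tested members, against 22.6%, 28.4%, 14.1% and 17.2% of all genes.

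**Figure D1:**
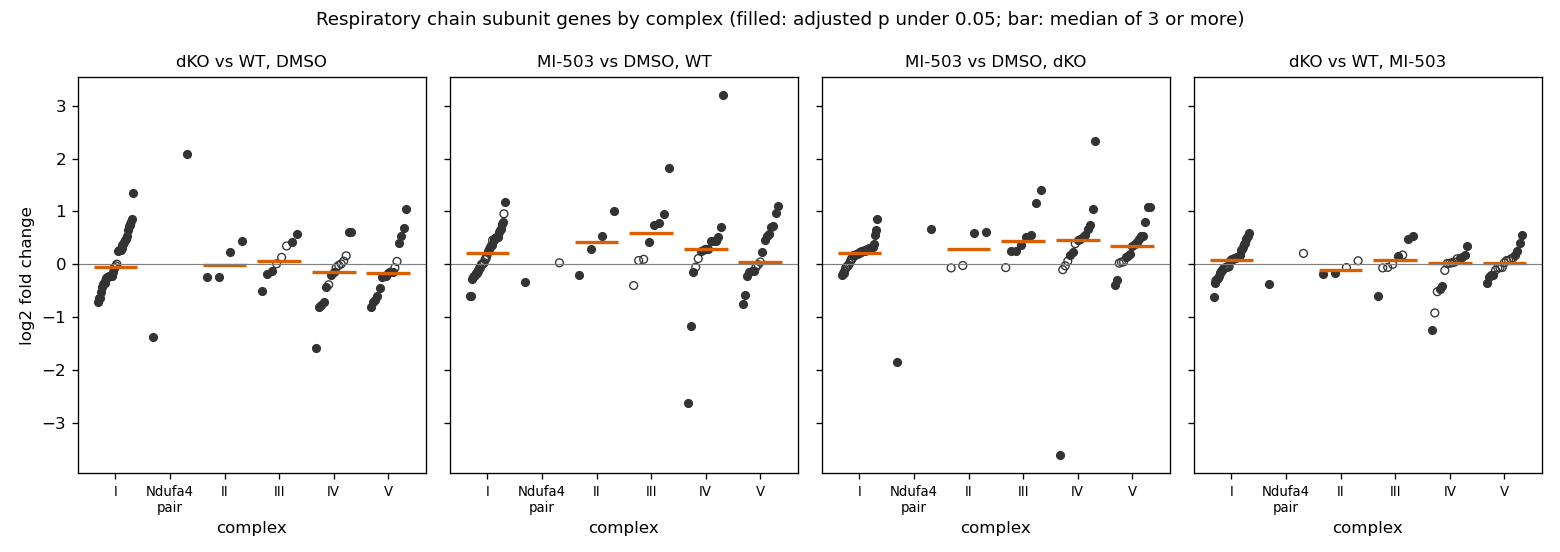
Log2 fold change of each tested member (points, filled where the adjusted p was under 0.05) by complex in 4 comparisons, with the median of each group of 3 or more as a bar. Medians with MI-503 lie above 0 in complexes I to V in both genotypes, from 0.04 (complex V in WT) to 0.58 (complex III in WT). The median of all tested genes was 0.03 in both genotypes, so complex V in WT lies near it. Points past 2 on either side are isoform genes of low count.

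The MI-503 comparisons in the 2 genotypes share no library. In both, 36 members rose, which is 85.7% of those that rose in WT and 70.6% of those that rose in dKO. Both calls held under every alternative for 24 of the 36, of which Cox6b2 was not tested under the stricter filter on low counts. Over all tested genes, 59.8% of those that rose in WT also rose in dKO, and 72.5% the other way round. The members that fell in both were Atp5g1, Atp5s, Cox6a2, Ndufb9, Ndufs4 and Ndufv2. They were 30% of those that fell in WT and 85.7% of those that fell in dKO, against 60.4% and 76.9% over all genes. Both calls held under every alternative for Atp5g1, and for Cox6a2 under the 14 that tested it, as the stricter filter on low counts left it out. The falls of Ndufb9 were lost under 9 of 15 alternatives in WT and 6 of 15 in dKO, and that of Ndufv2 in WT under 7. Those of Atp5s and Ndufs4 in dKO were each lost under 2. Another 4 fell in WT and rose in dKO (Atp5j, Ndufa12, Ndufa4 and Ndufab1), which is 4.76% of the tested members against 2.9% of all genes. None rose in WT and fell in dKO, against 2.16% of all genes. Of the 4, only Ndufa4 held both calls under every alternative. The fall in WT was lost under 8 of 15 for Atp5j, and with library size alone for Ndufa12 and Ndufab1. The rise of Ndufa12 in dKO was lost under 3 of 15.

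Complex I takes electrons from NADH in its N module, hands them to ubiquinone in its Q module and pumps protons in its membrane arm. In DMSO 15 of 38 tested members were higher (39.5%) and 16 lower (42.1%) in dKO, where 29.6% and 35.8% of all genes were. Its 7 nuclear catalytic core genes split 4 to 1. The members that were higher included Ndufv1, which binds NADH, with a log2 fold change of 0.74 (SE 0.067, adjusted p = 2.87e-07). Ndufs8, an iron-sulfur subunit, was higher by 0.73 (SE 0.067, adjusted p = 3.58e-07). Ndufs4, an accessory subunit needed for a stable N module, was lower (-0.71, SE 0.063, adjusted p = 2.31e-07). With MI-503, 17 rose (44.7%) and 9 fell (23.7%) in WT, where 35.2% and 33.7% of all genes did. In dKO 20 rose (52.6%) and 3 fell (7.89%), where 29.1% and 26.5% of all genes did. In the membrane arm 11 of 21 rose in WT (52.4%) and 13 of 21 in dKO (61.9%).

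Ndufb8 (ENSMUSG00000025204, chr19:44548571-44555442), an accessory subunit at the far end of the membrane arm, had the largest rise of complex I both by genotype in DMSO and with MI-503 in WT. It measured 24.2 and 21.0 CPM in WT DMSO, 53.0 and 48.9 in WT MI-503, 51.7 and 63.0 in dKO DMSO, and 70.7 and 63.0 in dKO MI-503. WT DMSO, whose libraries both of these comparisons use, thus stood below every other library, while both dKO groups met at 63.0. The log2 fold change was 1.34 (SE 0.097, adjusted p = 3.2e-08) by genotype in DMSO and 1.17 (SE 0.098, adjusted p = 9.77e-08) with MI-503 in WT. With MI-503 in dKO it was 0.22 and did not pass (adjusted p = 0.0588), and the MI-503 changes differed between genotypes by -0.95 (SE 0.13, adjusted p = 5.53e-05).

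Other complex I members had other orders of groups. Ndufs1, a core subunit of the N module with several iron-sulfur clusters, measured 178 and 192 CPM in WT DMSO, 118 and 125 in WT MI-503, 150 and 137 in dKO DMSO, and 130 and 132 in dKO MI-503. Here WT DMSO was highest. It had the largest fall of complex I with MI-503 in WT (-0.61, SE 0.056, adjusted p = 2.78e-07), and in dKO the change was -0.13 and did not pass (adjusted p = 0.072). Ndufb3, a small membrane arm subunit, had the largest rise of complex I with MI-503 in dKO (0.86, SE 0.061, adjusted p = 4.63e-08). It was at 47.8 and 48.4 CPM in WT DMSO, 59.8 and 61.6 in WT MI-503, 32 and 29.5 in dKO DMSO, and 53.8 and 57.5 in dKO MI-503, so dKO DMSO stood alone below the rest. The largest fall with MI-503 in dKO among complex I members was that of Ndufv2, at -0.20. In MI-503, Ndufb7 was the most raised by genotype (0.60, SE 0.14, adjusted p = 0.0024) and Ndufa3 the most lowered (-0.61, SE 0.074, adjusted p = 9.31e-06).

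Ndufb4, a small membrane arm subunit, rose with MI-503 by 0.36 in WT and 0.32 in dKO and was lower in dKO in MI-503 (-0.36, SE 0.07). Its copy Ndufb4c held 9 to 23 counts per library and passed in no comparison.

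Ndufa4 (ENSMUSG00000029632, chr6:11900372-11907450) had the largest fall by genotype in DMSO among members of at least 5 CPM. It measured 459 and 474 CPM in WT DMSO, 363 and 374 in WT MI-503, 188 and 173 in dKO DMSO, and 275 and 296 in dKO MI-503. No groups overlapped, and the genotypes were closer to each other in MI-503 than in DMSO. By genotype in DMSO the log2 fold change was -1.37 (SE 0.054, adjusted p = 6.04e-11). With MI-503 it fell by 0.34 in WT (adjusted p = 5.13e-05) and rose by 0.66 in dKO (adjusted p = 1.67e-07), and the interaction was 1.00 (SE 0.075, adjusted p = 1.96e-07). Its paralog Ndufa4l2, known as a gene induced by low oxygen, had only 14 and 11 counts in WT DMSO, 20 and 7 in WT MI-503, 48 and 73 in dKO DMSO, and 9 and 22 in dKO MI-503. It was higher in dKO in DMSO (2.09, SE 0.46, adjusted p = 0.00112).

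**Figure D2:**
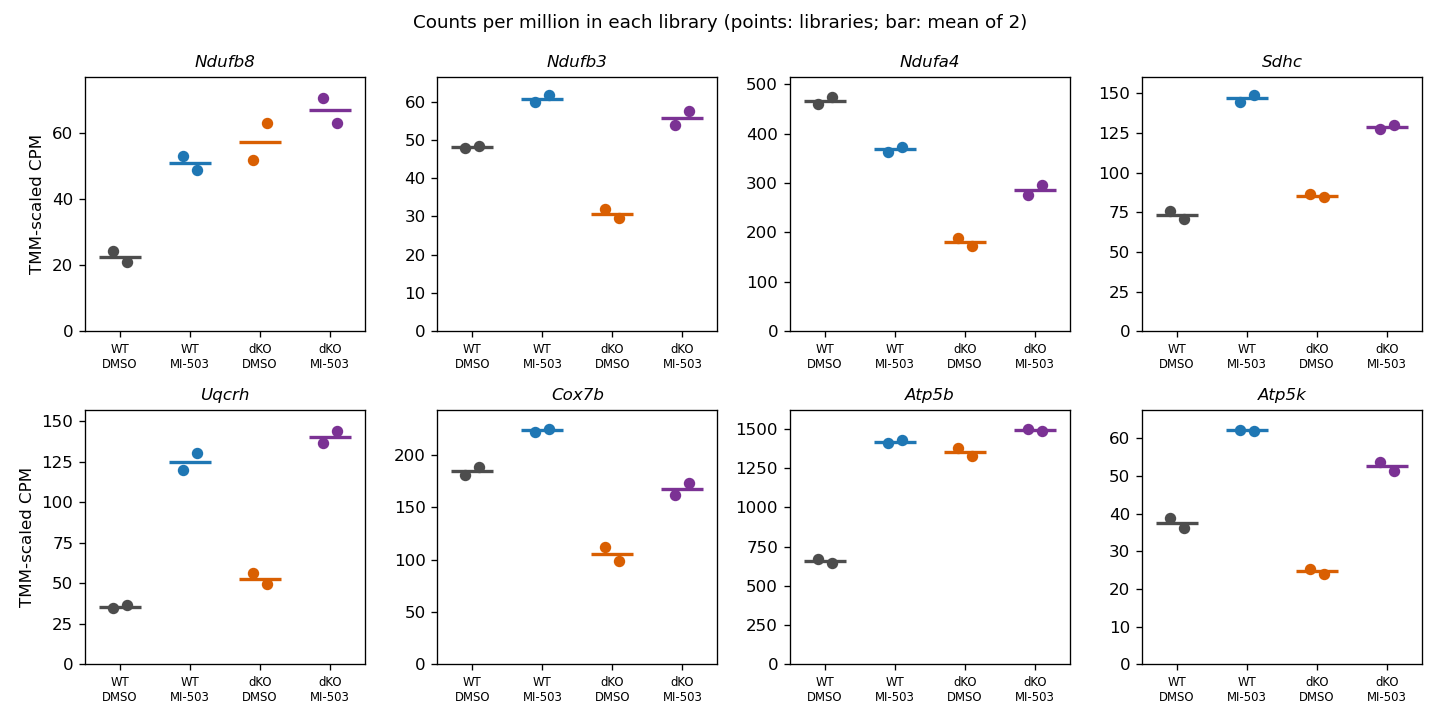
TMM-scaled CPM of 8 members in each of the 8 libraries (points) with the mean of each group of 2 (bar), each axis starting at 0. WT DMSO is lowest for Ndufb8 and Atp5b, dKO DMSO is lowest for Ndufa4, Ndufb3, Cox7b and Atp5k, and for Sdhc and Uqcrh both MI-503 groups stand above both DMSO groups.

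Complex II, or succinate dehydrogenase, has 4 subunits, all nuclear, and joins the citric acid cycle to the chain. Its 2 membrane anchors rose with MI-503 in both genotypes, and its flavin subunit passed in WT but not in dKO. Sdhc, an anchor that binds heme and ubiquinone, measured 75.6 and 70.9 CPM in WT DMSO, 145 and 149 in WT MI-503, 86.7 and 84.4 in dKO DMSO, and 128 and 130 in dKO MI-503. MI-503 libraries were above all DMSO libraries. The log2 fold change was 1.00 (SE 0.049, adjusted p = 3.44e-10) in WT and 0.59 (SE 0.048, adjusted p = 1.9e-07) in dKO, and the interaction was -0.41 (adjusted p = 0.000217). Sdhd, the other anchor, rose by 0.30 in WT and 0.61 in dKO. Sdha, the flavin subunit, measured 174 and 168 CPM in WT DMSO, 237 and 258 in WT MI-503, 238 and 226 in dKO DMSO, and 216 and 227 in dKO MI-503, so WT DMSO was again lowest. It rose by 0.53 with MI-503 in WT and by 0.44 by genotype in DMSO, and changed by -0.07 with MI-503 in dKO (adjusted p = 0.291), with an interaction of -0.60 (adjusted p = 1.84e-05). Sdhb, the iron-sulfur subunit, fell with MI-503 in WT (-0.20) and was lower by genotype in DMSO (-0.23), and both calls were lost when scaled by library size alone. The first was also lost with no filter on low counts and without WT DMSO replicate 1.

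Complex III, which passes electrons from ubiquinol to cytochrome c, had no member that fell with MI-503 in either genotype. With MI-503, 5 of 8 rose in WT (62.5%) and 7 of 8 in dKO (87.5%), against 35.2% and 29.1% of all genes. In DMSO 2 were higher (25%) and 3 lower (37.5%) in dKO, near the 29.6% and 35.8% of all genes. Uqcrh (ENSMUSG00000063882, chr4:116066965-116075070), the acidic hinge subunit beside cytochrome c1, had the largest rise with MI-503 of all members of at least 5 CPM in both genotypes. It measured 34.5 and 36.6 CPM in WT DMSO, 120 and 130 in WT MI-503, 56.2 and 49.6 in dKO DMSO, and 136 and 144 in dKO MI-503. The DMSO groups did not overlap each other, and all 4 MI-503 libraries were above all DMSO libraries. The rise was 3.51-fold in WT (log2 1.81, SE 0.068, adjusted p = 2.74e-11) and 2.65-fold in dKO (log2 1.41, SE 0.066, adjusted p = 9.18e-10). The 2 rises differed (-0.41, adjusted p = 0.00261), and by genotype in DMSO Uqcrh was higher by 0.57 (adjusted p = 4.77e-06).

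The core proteins Uqcrc1 and Uqcrc2 and the Rieske iron-sulfur subunit Uqcrfs1 rose with MI-503 in both genotypes, by 0.74, 0.78 and 0.42 in WT and by 0.24, 0.36 and 0.56 in dKO. Uqcrc2 was at 325 and 346 CPM in WT MI-503 and at 217 and 228 in dKO MI-503, and was the most lowered complex III member by genotype in MI-503 (-0.59). Uqcrb, which helps bind ubiquinone, was the most lowered by genotype in DMSO (-0.50, SE 0.06) and rose with MI-503 in dKO (0.51). Uqcr11, a small subunit, rose by 0.96 in WT (SE 0.16) and 1.15 in dKO (SE 0.16). By genotype in MI-503 it was the most raised (0.54), a call that was lost with DESeq2 (adjusted p = 0.0834) and without WT MI-503 replicate 2 or dKO MI-503 replicate 1.

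Complex IV, cytochrome c oxidase, is assembled around a mitochondrially encoded core, and many of its nuclear subunits come as isoforms used in different tissues. Of its 10 genes that are single or ubiquitous isoforms, 1 was higher and 6 lower in dKO in DMSO, where 29.6% and 35.8% of all genes were. With MI-503, 7 rose and 1 fell in WT, where 35.2% and 33.7% of all genes did. In dKO 8 rose and none fell with MI-503, where 29.1% and 26.5% of all genes did. The interaction was positive for 7 and negative for 1, against 24.8% and 22% of all genes. Of the positive calls, only those of Cox6c, Cox7a2 and Cox7b held under every alternative. Those of Cox5a and Cox8a were each lost under 11 of 14, and the negative one of Cox4i1 under 4. Scaled by library size alone, the DMSO comparison became 4 higher and 4 lower and the interaction 3 to 1.

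Cox7b, a small subunit, was the most lowered complex IV member of at least 5 CPM by genotype in DMSO (-0.81, SE 0.059, adjusted p = 3.21e-08). It measured 181 and 188 CPM in WT DMSO, 222 and 225 in WT MI-503, 112 and 99.1 in dKO DMSO, and 162 and 174 in dKO MI-503. dKO was below WT under both treatments. It rose by 0.28 with MI-503 in WT and by 0.67 in dKO, and the interaction was 0.39 (adjusted p = 0.00132). Cox6b1, which joins the monomers of the dimer, had the same order. It was at 163 and 167 CPM in WT DMSO, 221 and 227 in WT MI-503, 96.1 and 96.5 in dKO DMSO, and 162 and 161 in dKO MI-503. It was lower in dKO under both treatments (-0.77 in DMSO and -0.47 in MI-503).

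Cox4i1, the regulatory subunit that binds ATP, went the other way. It measured 168 and 156 CPM in WT DMSO, 226 and 215 in WT MI-503, 236 and 257 in dKO DMSO, and 290 and 269 in dKO MI-503. It was higher in dKO by 0.61 in DMSO (SE 0.058, adjusted p = 5.83e-07) and by 0.34 in MI-503 (adjusted p = 0.0002). Its rise with MI-503 was 0.45 in WT and 0.18 in dKO. The latter call was lost when only the dKO groups were fitted and when replicate 1 of either dKO group was left out.

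Cox7a2 and Cox7a2l are paralogs with different places: Cox7a2 is a subunit of complex IV, and Cox7a2l links complexes III and IV in supercomplexes. Cox7a2 measured 83.1 and 83.7 CPM in WT DMSO, 114 and 112 in WT MI-503, 51.8 and 49.9 in dKO DMSO, and 100.7 and 108 in dKO MI-503. Cox7a2l measured 90.8 and 80.9 CPM in WT DMSO, 141 and 140 in WT MI-503, 130 and 131 in dKO DMSO, and 152 and 155 in dKO MI-503. Cox7a2 was lowest in dKO DMSO, and Cox7a2l was lowest in WT DMSO. By genotype in DMSO Cox7a2 was lower (-0.71, SE 0.051) and Cox7a2l higher (0.60, SE 0.054). With MI-503 Cox7a2 rose by 0.44 in WT and 1.04 in dKO, with an interaction of 0.60 (adjusted p = 1.31e-05), and Cox7a2l rose by 0.71 in WT and 0.23 in dKO, with an interaction of -0.48 (adjusted p = 0.000155). Among the other pairs, Cox5b passed in no comparison and ranged from 82.8 to 87.7 CPM, and Cox5a fell by 0.15 with MI-503 in WT, a call that was lost under 7 of 15 alternatives. Cox6a1 rose with MI-503 by 0.51 in WT and 0.45 in dKO, and Cox8a by 0.29 and 0.47.

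The muscle and testis isoforms were near the floor of the assay. Cox6a2, a heart and muscle isoform, had 66 and 47 counts in WT DMSO, 10 and 9 in WT MI-503, 75 and 57 in dKO DMSO, and 6 and 4 in dKO MI-503. With MI-503 the log2 fold change was -2.63 in WT (SE 0.37, adjusted p = 2.12e-05) and -3.61 in dKO (SE 0.41, adjusted p = 4.95e-06). Cox6b2, a testis isoform, had 6 and 8 counts in WT DMSO, 70 and 67 in WT MI-503, 5 and 7 in dKO DMSO, and 26 and 32 in dKO MI-503. It rose with MI-503 by 3.20 in WT (SE 0.37, adjusted p = 2.58e-06) and by 2.34 in dKO (SE 0.42, adjusted p = 0.000304). The groups of the 2 treatments did not overlap for either gene, and the directions were opposite. Of 10 markers of skeletal or cardiac muscle, 9 were under 1 CPM and Myh1, Myh2 and Myh4 were at 0, and their summed level was 5.65 to 8.04 CPM in all libraries. Cox7a1, the muscle paralog of Cox7a2, had 5 to 26 counts, and its falls (-1.58 by genotype in DMSO and -1.17 with MI-503 in WT) were lost under 3 and 8 of 14 alternatives.

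**Figure D3:**
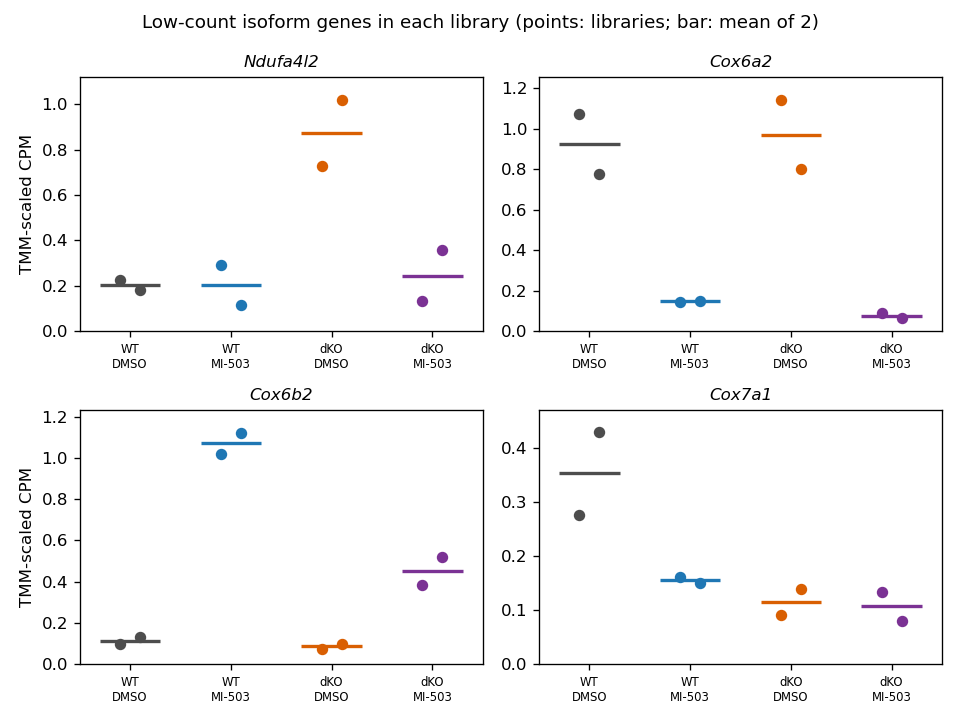
TMM-scaled CPM of 4 isoform genes of low count in each library (points) with the mean of each group of 2 (bar). Cox6a2 is lower and Cox6b2 higher in all 4 MI-503 libraries than in all 4 DMSO libraries, and Ndufa4l2 stands out in dKO DMSO, at 0.728 and 1.02.

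Complex V is a rotary enzyme: the F1 head makes ATP, the c ring turns in the membrane, the peripheral stalk holds the head still and small membrane subunits help it dimerise. Its parts did not move as one. Of 5 F1 genes, 3 were higher and 1 lower in dKO in DMSO, while all 4 peripheral stalk genes and 3 of 4 small membrane subunits were lower. Over all genes, 29.6% were higher and 35.8% lower. Under scaling by library size alone, 4 F1 genes were higher, 1 stalk gene and 3 small membrane subunits were lower. With MI-503 in WT, 4 of 5 F1 genes rose and all 4 stalk genes fell (-0.21 to -0.12), where 35.2% of all genes rose and 33.7% fell. Scaled by library size alone none of the stalk genes passed. The falls of Atp5h, Atp5j and Atp5o were lost under 9, 8 and 5 of 15 alternatives, DESeq2 and no filter on low counts among them. With MI-503 in dKO, where 29.1% of all genes rose, all 5 F1 genes and all 4 small membrane subunits rose, and 1 stalk gene rose.

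Atp5b (ENSMUSG00000025393, chr10:128083307-128090388), the catalytic beta subunit, measured 670 and 648 CPM in WT DMSO, 1409 and 1428 in WT MI-503, 1378 and 1327 in dKO DMSO, and 1500.2 and 1488 in dKO MI-503. WT DMSO alone was low. It was 2.05-fold higher in dKO in DMSO (log2 1.04, SE 0.046, adjusted p = 1.97e-10) and rose 2.15-fold with MI-503 in WT (log2 1.11, SE 0.046, adjusted p = 6.99e-11). In dKO the rise was 0.14 (adjusted p = 0.0149), and the call was lost when only those 2 groups were fitted (adjusted p = 0.0662) and without dKO DMSO replicate 2 or either dKO library of MI-503. The interaction was -0.96 (SE 0.064, adjusted p = 6.91e-08). Atp5a1, the alpha subunit with which beta alternates in the head, rose in both genotypes. It was at 456 and 424 CPM in WT DMSO, 867 and 855 in WT MI-503, 582 and 581 in dKO DMSO, and 1032 and 1004 in dKO MI-503. It rose by 0.97 in WT (SE 0.048) and 0.81 in dKO (SE 0.048), and the difference of -0.16 did not pass (adjusted p = 0.0669). Atp5d, the delta subunit of the central stalk, was higher in dKO in DMSO (0.68) and in MI-503 (0.56).

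The small membrane subunits stood lowest in dKO DMSO. Atp5k, the e subunit, measured 38.8 and 36.2 CPM in WT DMSO, 62.3 and 61.9 in WT MI-503, 25.3 and 24.1 in dKO DMSO, and 53.7 and 51.3 in dKO MI-503. It had the largest rise of complex V with MI-503 in dKO (1.09, SE 0.060, adjusted p = 4.08e-09), with 0.73 in WT. Atp5mpl followed with 1.08 in dKO and 0.47 in WT, and its changes differed by 0.61 (adjusted p = 0.000177). Atp5l, the g subunit, changed by -0.01 in WT and rose by 0.54 in dKO. All 4 interactions were positive, and with library size alone 2 of 4 passed.

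The c subunit of the ring is encoded by 3 genes, listed here under the symbols Atp5g1, Atp5g2 and Atp5g3, that give the same mature protein. Atp5g1 measured 85.9 and 76.5 CPM in WT DMSO, 54.5 and 54.4 in WT MI-503, 75.5 and 79.6 in dKO DMSO, and 61 and 57.5 in dKO MI-503, and fell with MI-503 in both genotypes (-0.58 and -0.39). Atp5g2 measured 67.1 and 57.7 CPM in WT DMSO, 97.4 and 89.4 in WT MI-503, 83.9 and 97.1 in dKO DMSO, and 106 and 93.8 in dKO MI-503. Here WT DMSO was lowest. Atp5g2 rose by 0.58 with MI-503 in WT and by 0.54 by genotype in DMSO, and the change of 0.14 with MI-503 in dKO did not pass. Atp5g3 ranged from 148 to 196 CPM and rose with MI-503 in dKO (0.34), where the change in WT of -0.06 did not pass, and its interaction was 0.40. Reads of such close copies, and of processed copies elsewhere, may have been split between them by the counting. Atp5s, coupling factor B, fell with MI-503 in WT (-0.75, SE 0.089) and was lower in dKO in DMSO (-0.81, SE 0.089), at 23.2 and 26.1 CPM in WT DMSO and 10.7 to 14.9 in the other 6 libraries.

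The difference between MI-503 effects was positive for 30 of 84 members and negative for 16, where 24.8% of all genes were positive and 22% negative. Scaled by library size alone, 14 were positive and 27 negative, while the median of all genes moved by -0.16. The sign of the balance thus changed with the scaling, and the 27 calls that held under every alternative were 14 positive and 13 negative. Among the negative ones were Atp5b, Ndufb8, Ndufv1, Sdha, Sdhc, Uqcrc1, Uqcrc2 and Cox7a2l, and among the positive ones Ndufa4, Cox7a2, Cox7b, Cox6c, Atp5mpl, Atp5j, Ndufb3, Ndufab1 and Uqcrb.

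**Figure D4:**
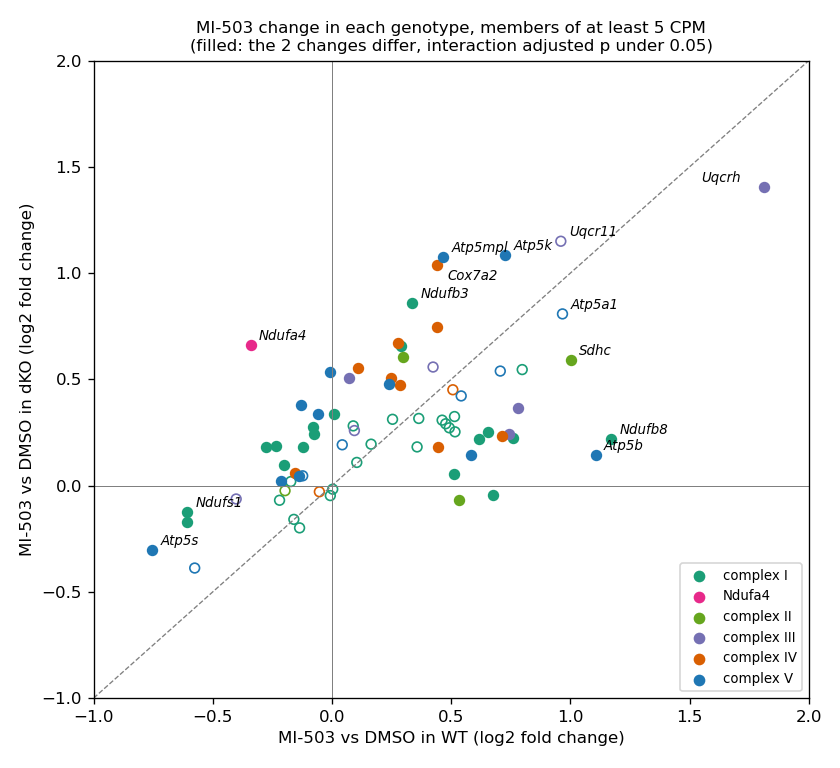
Log2 fold change with MI-503 in WT (horizontal) and in dKO (vertical) of the members of at least 5 CPM, filled where the 2 changes differed by the test and with the line of equality dashed. Uqcrh is at the upper right at 1.81 and 1.41, Atp5b and Ndufb8 lie right of the line at 1.11 and 1.17 in WT, and Ndufa4, at -0.34 and 0.66, lies left of 0 and above it.

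Between the genotypes, the comparisons in DMSO and in MI-503 share no library. Of the 26 members higher in dKO in DMSO, 12 (46.2%) were also higher in MI-503, and of the 39 lower in DMSO, 13 (33.3%) were also lower in MI-503. Over all genes these shares were 54.8% and 54.1%. Higher under both treatments were Atp5a1, Atp5d, Cox4i1, Ndufa11, Ndufa13, Ndufa2, Ndufb7, Ndufb8, Ndufs7, Ndufs8, Ndufv1 and Uqcrh. Both calls held under every alternative for 9 of these 12, and the other ones were Ndufa11, Ndufs7 and Uqcrh. With DESeq2, Ndufs7 lost both calls and Uqcrh the one in MI-503. Lower under both were Atp5j, Atp5j2, Atp5k, Atp5s, Cox6b1, Cox7b, Ndufa3, Ndufa4, Ndufa9, Ndufab1, Ndufb4, Ndufs4 and Uqcrc2. Both calls held for 7 of these 13, and the other ones were Atp5j, Atp5s, Ndufa9, Ndufab1, Ndufb4 and Uqcrc2. The fall of Uqcrc2 in DMSO (-0.18) was lost under 8 of 15 alternatives and was 0.05 with library size alone.

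Summed over all 89 members, the level was 7957 and 7798 CPM in WT DMSO, 10015 and 10093 in WT MI-503, 8243 and 8298 in dKO DMSO, and 10326 and 10069 in dKO MI-503. All MI-503 libraries were above all DMSO libraries. The sum of each of complexes I to V did the same. As a share of library counts, with no scaling factor, the members held 0.713% and 0.695% in WT DMSO, 1.01% and 1.02% in WT MI-503, 0.859% and 0.874% in dKO DMSO, and 1.09% and 1.07% in dKO MI-503. These sums are given as a description and were not tested, and genes of high count weigh most in them. From WT DMSO to WT MI-503 the mean sum of complex V went from 2797 to 4040 CPM. Within it the mean of Atp5b went from 659 to 1418 CPM and that of Atp5a1 from 440 to 861. The median log2 fold change of complex V in WT was 0.04, with 8 of 17 members risen and 6 fallen.

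The 13 protein-coding genes of mitochondrial DNA, whose products join complexes I, III, IV and V, moved against the nuclear members in sum, but not all did singly. Their sum was 34267 and 37234 CPM in WT DMSO, 24230 and 24155 in WT MI-503, 28948 and 26806 in dKO DMSO, and 21882 and 24850 in dKO MI-503. With MI-503, 10 of 13 fell (76.9%) and 1 rose (7.69%) in WT (median -0.63), where 33.7% and 35.2% of all genes did. In dKO 11 fell (84.6%) and 2 rose (15.4%), with a median of -0.67, where 26.5% and 29.1% of all genes did. mt-Co1, a complex IV subunit, measured 15416 and 16639 CPM in WT DMSO and 15869 and 15792 in WT MI-503. In dKO it went from 11739 and 10696 CPM in DMSO to 13135 and 15127 in MI-503. mt-Co3, of the same complex, rose by 0.37 in WT and 0.40 in dKO. mt-Cytb, the one mitochondrially encoded subunit of complex III, measured 6849 and 7453 CPM in WT DMSO, 1816 and 1749 in WT MI-503, 6298 and 5954 in dKO DMSO, and 2011 and 2278 in dKO MI-503. This gene had the largest fall of the 13 in WT (adjusted p = 1.02e-11) and in dKO (adjusted p = 4.69e-10). There 5 and 7 of the 8 nuclear members of that complex rose. Scaled by library size alone, 8 mitochondrial DNA genes fell in WT (median -0.45) and 11 in dKO (median -0.65), and the nuclear members' medians were 0.44 and 0.26.

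**Figure D5:**
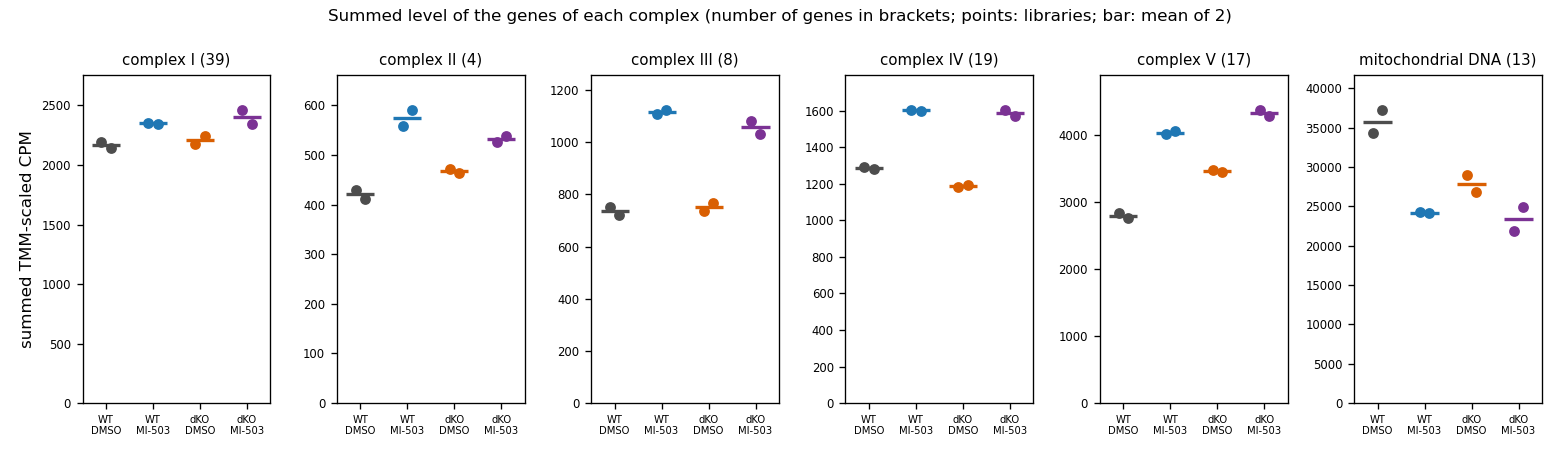
Summed TMM-scaled CPM of the genes of each complex in each library (points) with the mean of each group of 2 (bar), each axis starting at 0. The sums of complexes I to V are each higher in all MI-503 libraries than in all DMSO libraries. The sum of the 13 mitochondrial DNA genes is lower in all MI-503 libraries, at 21882 to 24850 against 26806 to 37234.

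Genes around the chain were read from lists of assembly factors, carriers, citric acid cycle enzymes with pyruvate dehydrogenase, regulators, mitochondrial DNA maintenance and import. Over all tested genes, 35.2% rose and 33.7% fell with MI-503 in WT, and 29.1% and 26.5% did in dKO. By genotype in DMSO 29.6% were higher and 35.8% lower. Of 47 tested assembly factors, 16 rose (34%) and 14 fell (29.8%) with MI-503 in WT, and 12 rose (25.5%) and 13 fell (27.7%) in dKO. These shares lay near those of all genes. By genotype in DMSO 18 assembly factors were higher (38.3%) and 17 lower (36.2%). Their medians were 0.05, 0.05 and 0.03. Scaled by library size alone, 25 were higher and 8 lower by genotype in DMSO. Of 19 genes for electron carriers and coenzyme Q synthesis, 6 rose (31.6%) and 7 fell (36.8%) in WT, and 3 rose (15.8%) and 5 fell (26.3%) in dKO. By genotype in DMSO 5 were higher (26.3%) and 7 lower (36.8%). With library size alone the balance turned, to 11 and 6 in WT and 9 and 5 by genotype. Cyc1, the cytochrome c1 that Uqcrh touches, was at 73.3 and 63.0 CPM in WT DMSO, 163 and 156 in WT MI-503, 133 and 139 in dKO DMSO, and 175 and 165 in dKO MI-503. It rose by 1.23 with MI-503 in WT and 0.33 in dKO, and was higher by 0.99 by genotype in DMSO.

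The list for the citric acid cycle holds 18 genes, among them subunits of pyruvate dehydrogenase such as Pdhb and Pdhx. Of these 18, 8 rose (44.4%) and 10 fell (55.6%) with MI-503 in WT, and 11 rose (61.1%) and 4 fell (22.2%) in dKO. By genotype in DMSO 3 were higher (16.7%) and 7 lower (38.9%). Idh2, the mitochondrial NADP isocitrate dehydrogenase, rose by 1.80 in WT and 0.66 in dKO. Pdhb, a subunit of pyruvate dehydrogenase, fell in WT (-1.58) and was lower by genotype in DMSO (-1.42). Of 15 regulators of mitochondrial gene expression, 6 rose (40%) and 7 fell (46.7%) in WT, and 4 rose (26.7%) and 7 fell (46.7%) in dKO. By genotype in DMSO 5 were higher (33.3%) and 8 lower (53.3%). Epas1, an oxygen-regulated factor, rose by 2.40 in WT and 2.20 in dKO, and Myc fell in both (-1.43 and -0.78). Gabpb1, the partner of GABPA, was lower in dKO in DMSO (-0.85). It measured 125 and 136 CPM in WT DMSO and 58.5 and 58.6 in WT MI-503. The dKO libraries were at 74.9 and 70.3 CPM in DMSO and 56.3 and 54.7 in MI-503, and its interaction was 0.77.

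Of 18 genes that maintain or transcribe mitochondrial DNA, 2 rose (11.1%) and 11 fell (61.1%) with MI-503 in WT, and 1 rose (5.56%) and 7 fell (38.9%) in dKO. By genotype in DMSO 5 were higher (27.8%) and 9 lower (50%). Tfam, the packaging and transcription factor of mitochondrial DNA, was lower by genotype in DMSO (-1.06). It measured 104 and 107 CPM in WT DMSO and 48.5 and 51.6 in WT MI-503. The dKO libraries were at 52.2 and 48.9 CPM in DMSO and 43 and 48.6 in MI-503. WT DMSO thus stood above the rest, and the interaction of Tfam was 0.93. Of 31 genes of import and the inner membrane, 9 rose (29%) and 15 fell (48.4%) in WT, and 11 rose (35.5%) and 11 fell (35.5%) in dKO. By genotype in DMSO 7 were higher (22.6%) and 17 lower (54.8%). Scaled by library size alone these became 14 and 10 in WT, 13 and 11 in dKO, and 12 and 6 by genotype. Slc25a4, an ADP/ATP carrier, rose by 1.33 in WT and 0.92 in dKO.

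Some members varied within groups. Uqcrq measured 69.7 and 57.2 CPM in WT DMSO, 51.9 and 44.1 in WT MI-503, 55.8 and 83.1 in dKO DMSO, and 79.2 and 53.8 in dKO MI-503. Of 76 members of at least 5 CPM, 23 were higher in replicate 1 than in replicate 2 of 3 groups and lower in dKO DMSO, and the widest were Uqcrq, Uqcr11, Ndufb7, Atp5d and Ndufs7. Other members, such as Uqcrh, Uqcrb, Ndufs4 and Cox7b, had the reverse order in all 4 groups. The part of this spread in the members' changes was not tested beyond leaving out each library. One row left out as a pseudogene by its symbol, Ndufb1-ps, was not near 0, at 40.9 to 60.5 CPM, and rose with MI-503 by 0.36 in WT and 0.48 in dKO.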

How the data were processed

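Values are the raw counts of reads per gene as deposited: whole numbers, which the authors had not normalized, since totals differ between columns. STAR, Bowtie2, MACS3, deepTools, SICER, GRCm38 and mm10 are named for the series per the submitters' processing notes. Versions, strandedness, gene models and the counter were not given in the sources used here, which leaves values of overlapping genes and close copies uncertain. Only the 8 RNA-seq libraries of the 40 samples were used, grouped by genotype and treatment, and 32 samples were not analysed here. Library totals ran from 58113705 to 68571176, and limits for a count of 0 (3 counts per library) cover counting error only. One row without an identifier was dropped.

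The fit used edgeR 4.0.16 in R 4.3.3, with filterByExpr (minimum count 10, minimum total 15), TMM factors of 0.892 to 1.06 and 1 mean per group over all 8 libraries (4 residual degrees of freedom). WT DMSO had the lowest factors (0.896 and 0.892), and those of the other libraries ran from 1.007 to 1.062. The comparison by genotype in DMSO, that of MI-503 in WT and the interaction all use the WT DMSO libraries, so they are not independent. Quasi-likelihood F tests (two-sided) were adjusted by Benjamini-Hochberg over the 16921 tested genes in each contrast. Genes with an adjusted p under 0.05 are said to rise, fall, or be higher or lower. SE was derived from the log2 fold change and F, with a prior count of 0.125. The scripts were tested on simulated data.

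Alternatives changed the scaling (RLE, library size only), the tool (DESeq2 1.42.0), the filter (none, or 1 CPM), the libraries fitted, and the design (a replicate block). The rule for named genes took, by complex and contrast, the largest rise and the largest fall of at least 5 CPM, the isoform sets, complex II, the 5 largest interactions, and the largest changes of each surrounding list. One gene that this rule takes is not reported here. Further genes are examples chosen after their values were seen. Members and lists were chosen with earlier results of these data known. Sequences are RefSeq's, of GRCm38.p6.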

Additional observations from a re-analysis of the deposited data

Results flagged for a closer look

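For 4 members named here the effect of MI-503 differed widely between the genotypes by the interaction test of edgeR. The log2 differences, dKO minus WT, were -1.88 for Ndufa4l2 (adjusted p = 0.0483), 1.00 for Ndufa4 (adjusted p = 1.96e-07), -0.96 for Atp5b (adjusted p = 6.91e-08) and -0.95 for Ndufb8 (adjusted p = 5.53e-05). The calls of Ndufa4, Atp5b and Ndufb8 held under every alternative run. That of Ndufa4l2 rests on 7 to 73 counts per library and was lost under 7 of 13, with DESeq2 (adjusted p = 0.0932), the replicate block (adjusted p = 0.0548) and without either WT DMSO library, WT MI-503 replicate 1 (-1.05), dKO MI-503 replicate 1 or the second dKO DMSO library.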

How the results depend on the processing

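Of the calls past the threshold, those that held under every alternative that tested the gene were 40 of 65 by genotype in DMSO, 47 of 62 with MI-503 in WT, 40 of 58 with MI-503 in dKO, 27 of 46 interactions and 21 of 36 by genotype in MI-503. Scaling by library size alone moved the median of all genes by 0.23, 0.17, 0.01, -0.16 and 0.07 in that order. Under it, 18 members fell by genotype in DMSO and the median was 0.127, 6 fell with MI-503 in WT with a median of 0.439, interactions were positive for 14 and negative for 27 with a median of -0.018, and 31 were higher by genotype in MI-503. It also turned the sign of 16 members by genotype in DMSO and 10 with MI-503 in WT, counting only members that passed under either scaling. They included Atp5g1 (0.162), Cox5a (0.032) and Uqcrc2 (0.052) by genotype in DMSO, and Cox5a (0.021) and Ndufv2 (0.039) with MI-503 in WT. In place of the 20 members that fell with MI-503 in WT, the count was 13 with RLE, 11 with DESeq2, 11 with no filter and 11 with the stricter filter. With no filter, 26 interactions were negative, in place of 16. The causes were not tested.

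Leaving out 1 library at a time, the members that fell with MI-503 numbered 13 to 21 in WT (lowest without WT MI-503 replicate 1) and 4 to 7 in dKO (lowest without dKO DMSO replicate 1). The median interaction ran from 0.012 to 0.159, and members higher by genotype in MI-503 numbered 11 to 21, both lowest without dKO MI-503 replicate 1. With the replicate number as a block, 27 rose and 39 fell by genotype in DMSO, 42 and 17 with MI-503 in WT, and 51 and 6 in dKO. Whether the 2 numbers pair the samples beyond a name was not settled. The replicate differences of any 2 groups correlated by -0.09 to 0.06 over 16921 genes, and such values cannot exclude a pairing shared by part of the genes. For the interaction, the fit to only the groups compared is the fit reported and was not repeated. Genes of few counts, such as Cox7a1 and Ndufa4l2, are limited by depth.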
